A study of Anser cygnoides with 11 samples.

Results

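The genes described here carry out antigen presentation, the display of peptides on cell surfaces for inspection by T cells. They were measured by RNA sequencing in kidneys of 5 goslings with visceral gout and 6 healthy goslings of the swan goose, Anser cygnoides. The labels give no age, sex or strain for either group, and the treatment text they hold, on oxygen in water tanks, does not concern goslings. Members were the rows of the deposited FPKM table whose gene name matched 1 of 9 names. The names were chosen by a reading of this table's own gout and control levels and fold changes, so that contrast is given for the members as a description with no test.

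The 9 names gave 7 rows among 19275. LOC106049922, B2M, TAP2, CIITA and IFI30 had 1 row each and CD74 had 2, while TAP1, TAPBP and RFX5 had no row under those names. LOC106049922 is annotated in the table as a class II histocompatibility antigen, DR alpha chain. The row named LOC106029502, annotated as antigen peptide transporter 1-like, carries the gene number that RefSeq lists for TAP1 in its annotation of the Taihu goose genome, and it is described beside the members as the TAP1 row. TAPBP, which encodes tapasin, and RFX5, a subunit of the factor that binds class II promoters, were not analysed here. In the gene order of that annotation TAP1 and TAP2 are direct neighbours, and the next gene, LOC106029505, belongs to a class I heavy chain row.

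Peptides reach the cell surface by a pair of routes. In the class I route, used by nearly all nucleated cells, the TAP1 and TAP2 transporter moves cytosolic peptides into the endoplasmic reticulum, where they are loaded on a heavy chain held by beta-2-microglobulin, the product of B2M. In the class II route, used mainly by macrophages, dendritic cells and B cells, an alpha and a beta chain are escorted by the invariant chain CD74 to endosomes, where lysosomal proteases and the reductase IFI30 prepare the peptides, and CIITA is the master activator of the class II genes. In mammals interferon gamma raises both routes, and injured tubule cells can take up class II expression.

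FPKM is a count of sequenced fragments scaled to transcript length and to the yield of the library. The sum of FPKM per library was 229465 to 399990 among gout kidneys and 306484 to 390546 among controls. The table holds no counts, so depth is unknown and no counting interval can be given. HNF4A, a transcription factor of proximal tubule cells, was present at 25.1 ± 9.68 FPKM (SD, n = 5 gout) and 26.0 ± 7.64 FPKM (SD, n = 6 control). It was 1 of 6 proximal tubule markers tested as described next. Of these, GATM, SLC6A19 and SLC22A7 were lower in gout and 0 were higher, beside 6.29% and 0.694% of all rows tested. GATM reached 1 FPKM in no gout library, so a low value in gout was built into its being tested. HNF4A alone is not taken as a measure of the share of these cells. A filter on low values asked for 1 FPKM or more in 5 or more libraries and left 12252 rows, of which 856 (6.99%) were called, 771 lower and 85 higher in gout. Called means an adjusted p under 0.05 in limma, a linear model fitted across all rows. Over these rows the log2 fold changes had a median of -0.29, the shift against which single genes are set here. Quantile normalization, which gives every library the same distribution, brought the median to -0.0044 and gave 271 rows lower and 223 higher.

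The class II alpha chain LOC106049922 was among the most abundant members in control kidney, with a lowest value of 799, a median of 1077 and a highest of 2916 FPKM over the 6 control libraries. In gout kidney it stood at 425, 58.3, 150, 159 and 76.9 FPKM in replicates 1 to 5. Every gout library thus lay below every control library. The gout mean was 174 ± 147 FPKM (SD, n = 5) and the control mean 1335 ± 799.7 FPKM (SD, n = 6), a log2 fold change of -3.13 with a standard error of 0.47 on the log2(FPKM + 1) scale. Control replicate 1 was far above the other controls, and without it the log2 fold change was -2.87. In bulk tissue, fewer cells of a type and less RNA per cell cannot be told apart, for this and for every other row.

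CD74, the invariant chain, was the most abundant member in control kidney by FPKM. Its lowest, median and highest control values were 799.9, 2296 and 4322 FPKM. The 5 gout kidneys held 1269, 88.1, 163, 416 and 170.5 FPKM. Gout replicate 1 lay inside the control range and the other gout libraries below it. The log2 fold change was -2.90 (SE 0.61), and without gout replicate 1 it was -3.47. The control mean was 5.40 times the gout mean with that library and 10.9 times without it.

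The second CD74 row, an assembled transcript with no annotation in the table, lay far lower. It ranged from 0.281 to 126 FPKM in control, with a median of 4.78, and from 0.732 to 29.0 in gout, with a median of 4.55. The groups overlapped throughout, and the highest value of each group was that of its replicate 1. Its log2 fold change of -0.28 (SE 0.96) changed sign to 0.55 without control replicate 1, to 0.17 without gout replicate 4 and to 0.07 after quantile normalization.

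CIITA, the class II transactivator, was scarce in all kidneys. Control libraries held between 0.322 and 1.04 FPKM, with a median of 0.661. Gout libraries held 0.115, 0.0226, 0.0596, 0 and 0.0319 FPKM in replicates 1 to 5, where the 0 is the value listed for replicate 4. The groups did not overlap, and the highest gout value was below the lowest control value. CIITA did not reach the filter on low values. Its log2 fold change of -0.67 (SE 0.09) comes from the fit over all rows with no filter, and on the log2(FPKM + 1) scale it understates the distance between such low values.

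IFI30, the lysosomal thiol reductase that opens disulfide bonds of antigens, had the group means nearest to each other among the 4 class II genes. It stood at 52.6, 22.9, 22.9, 36.6 and 37.4 FPKM in the gout kidneys and between 33.1 and 60.4 in control kidneys, with a control median of 49.6. Gout replicates 2 and 3 lay below the lowest control and the other gout libraries inside the control range. Its log2 fold change was -0.50 (SE 0.26), near the shift of all rows, and -0.26 after quantile normalization. The only transcript in this row was an assembled one.

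**Figure D1:**
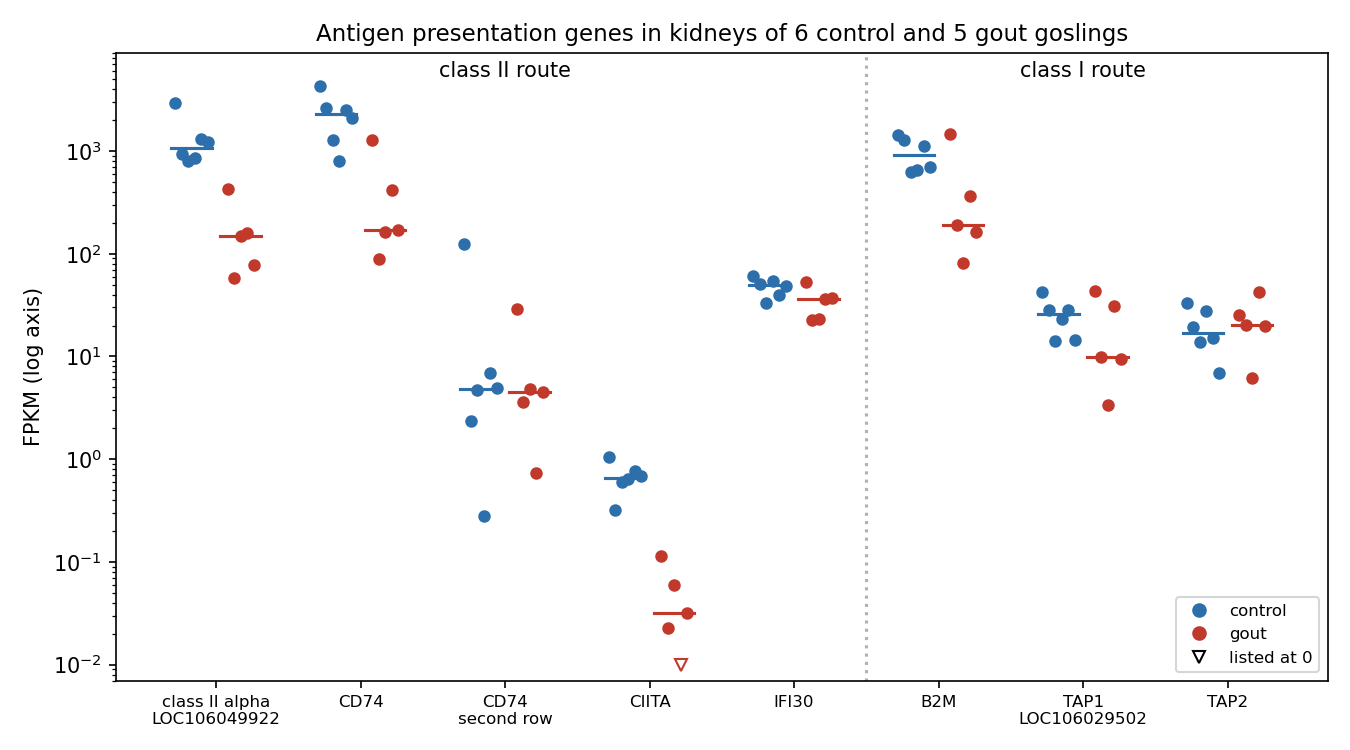
FPKM of each member row and of the TAP1 row LOC106029502 in the 6 control (blue) and 5 gout (red) libraries, on a log axis; each point is 1 gosling, lines are group medians, and the open triangle marks a value listed at 0. Groups do not overlap for LOC106049922 and CIITA, gout replicate 1 is the highest gout library for every row drawn but TAP2, and the TAP2 groups overlap.

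In the class I route B2M, the light chain of every class I molecule, stood at 1465, 191, 80.7, 364 and 162 FPKM in the gout kidneys. Control values ran from 618 to 1441 FPKM with a median of 910.0. Gout replicate 1 lay above all controls and the other gout libraries below all controls. The log2 fold change was -1.78 (SE 0.58), and without gout replicate 1 it was -2.39. The control mean was 2.14 times the gout mean with gout replicate 1 and 4.86 times without it.

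The peptide transporter genes had log2 fold changes smaller in size than that of B2M, a difference that was not tested. TAP2 held 25.6, 20.2, 6.16, 42.3 and 19.97 FPKM in gout and from 6.91 to 33.4 in control, with a median of 17.1, so the groups overlapped. Gout replicate 4 was the highest of all 11 libraries and gout replicate 3 the lowest. The log2 fold change of TAP2 was 0.17 (SE 0.44) and changed sign when single libraries were left out, to -0.10 without gout replicate 4 and -0.07 without control replicate 6. The TAP1 row held 43.6, 9.85, 3.36, 30.9 and 9.52 FPKM in gout and from 14.2 to 42.3 in control, with a median of 25.8. As for B2M, gout replicates 2, 3 and 5 were below all controls and gout replicate 1 above them. The log2 fold change of the TAP1 row was -0.72 (SE 0.52).

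Of the 7 member rows 6 passed the filter on low values, and 2 of these, LOC106049922 and CD74, were called lower and 0 higher, against 6.29% of all tested rows called lower and 0.694% called higher. The share of all rows called lower was 2.21% after quantile normalization, 2.42% with upper quartile scaling and 4.66% on the TPM scale. All gout libraries lay below all control libraries in 2 of the 7 rows, LOC106049922 and CIITA, and in 3.77% of all rows of the table. Since the members were chosen with this contrast known, nothing is read from these counts.

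Set side by side, the class II members with a row (LOC106049922, CD74 by its more abundant row, CIITA and IFI30) had a median log2 fold change of -1.79, and the class I members with a row (B2M and TAP2) one of -0.80, beside -0.29 for all tested rows. The medians differed by -0.98, and by -1.30 to -0.81 with single goslings left out. With a pseudocount of 0.1, at which CIITA weighs more, it was -1.85, and with the TAP1 row among the class I members it was -1.06. These medians rest on 4 and 2 genes chosen with their fold changes known, and carry no test.

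Ratios of FPKM within a library are free of that library's scaling. CD74 stood at 1.22 to 2.999 times B2M in the control kidneys, with a median ratio of 2.17. In gout kidneys the ratio was 0.866, 0.462, 2.02, 1.14 and 1.05. All gout libraries but replicate 3 lay below every control. The alpha chain LOC106049922 stood at 0.737 to 2.02 times B2M in control and 0.290, 0.306, 1.86, 0.437 and 0.475 times in gout. The same gout libraries lay below every control. Gout replicate 3, the exception, had the lowest B2M of all libraries.

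Between the class II members the ratio of LOC106049922 to CD74 was alike in range, 0.356 to 1.06 in control and 0.335 to 0.922 in gout. IFI30 departed from CD74, with an IFI30 to CD74 ratio of 0.0140 to 0.0681 in control and 0.0415, 0.260, 0.141, 0.0880 and 0.220 in gout. All gout libraries but replicate 1 lay above every control in this ratio.

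Within the class I route the TAP1 row and its neighbour TAP2 also came apart. The TAP1 to TAP2 ratio was 0.847 to 2.08 in control and 1.70, 0.488, 0.546, 0.729 and 0.477 in gout, so that all gout libraries but replicate 1 were below every control. Relative to B2M the TAP1 row was higher in the same libraries, at 0.0204 to 0.0354 in control and 0.0297, 0.0517, 0.0417, 0.0848 and 0.0589 in gout. No test was made of these ratios.

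**Figure D2:**
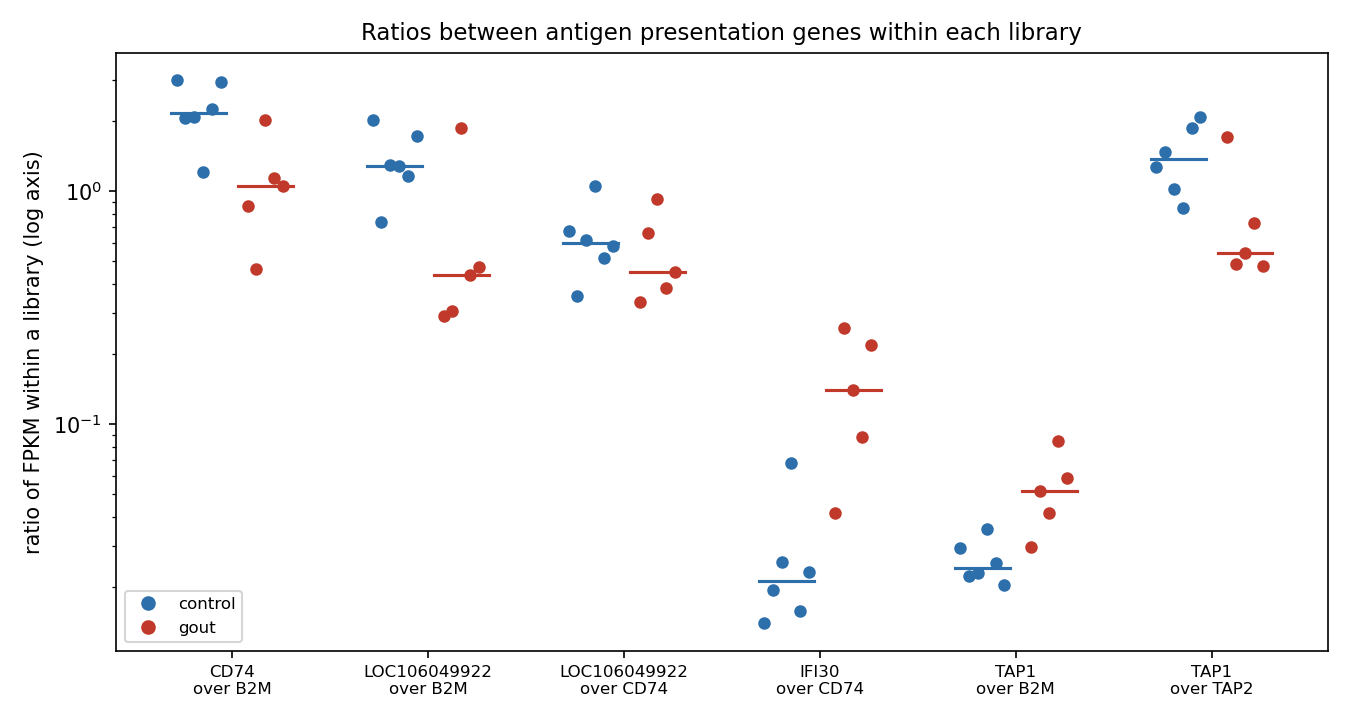
Ratios of FPKM between antigen presentation genes within each library, on a log axis; each point is 1 gosling (blue control, red gout) and lines are group medians. CD74 and LOC106049922 over B2M are lower in all gout libraries but replicate 3, whereas LOC106049922 over CD74 overlaps between the groups.

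Other histocompatibility rows of the table are no members and were tested in the fit over all rows. There were 6 rows, of which 2 were called lower in gout and 0 higher, beside the 6.29% and 0.694% above. LOC106029714, annotated as a class II beta chain of the B-L type and thus a partner of the alpha chain, fell. It stood at 156, 27.6, 52.8, 63.1 and 27.4 FPKM in gout and at 118 to 762 in control, with a median of 328. Only gout replicate 1 lay inside the control range. The log2 fold change was -2.46 (SE 0.50, limma adjusted p = 0.0142), and the adjusted p was at most 0.0431 without any single gosling and 0.0314 after quantile normalization.

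LOC106029726, annotated as a DM beta chain, one part of the molecule that exchanges peptides on class II, fell by 1.85 on the log2 scale (SE 0.52, limma adjusted p = 0.0468). Its gout values were 15.0, 2.10, 1.21, 9.57 and 1.98 FPKM and its control values 8.11 to 35.7, with a median of 17.9. This call did not hold with quantile normalization (adjusted p = 0.0766), with the other scalings or without each of 9 of the 11 single goslings. Gout replicates 1 and 4 lay inside the control range.

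The class I heavy chain rows were not called. The row shared by LOC106049847 and LOC106049848 held 573, 72.3, 35.7, 183 and 33.8 FPKM in gout and 143 to 569.8 in control, with a median of 425 (log2 fold change -1.74, SE 0.65, limma adjusted p = 0.111). Gout replicate 1 was again above all controls, and without it the row was called at a log2 fold change of -2.37 (adjusted p = 0.0140). The row shared by LOC106029505 and LOC106029504 averaged 67.8 ± 28.6 FPKM among gout kidneys (SD, n = 5) and 198 ± 169.5 among controls (SD, n = 6; limma adjusted p = 0.11). These genes belong to families of like sequence, and how the authors' counting split fragments among copies is unknown. HMHA1 and HM13, annotated as a minor histocompatibility protein and a minor histocompatibility antigen, were not called (adjusted p = 0.112 and 0.568).

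Of 15 further genes of the class II route with a row 14 were tested, and 6 fell and 0 rose, beside 6.29% and 0.694% of all rows. The count was 1 without gout replicate 2, without gout replicate 4 or without control replicate 5. This list and the other gene and marker lists were written with earlier results of these data known. Their counts and p-values are therefore a description. CTSS, the cathepsin that trims the invariant chain, fell from 81.4 ± 30.9 FPKM in control (SD, n = 6) to 22.8 ± 7.16 in gout (SD, n = 5), with all gout libraries below all controls (log2 fold change -1.76, limma adjusted p = 0.00568). SPI1, the myeloid and B cell transcription factor PU.1, fell from 49.3 ± 26.2 to 14.4 ± 12.0 FPKM (adjusted p = 0.0228), and IRF4, a lymphoid and dendritic cell transcription factor, from 2.59 ± 1.64 to 0.394 ± 0.688 (adjusted p = 0.0271). Among gout libraries IRF4 reached 1 FPKM in replicate 1 alone, at 1.62. It would pass the filter through the control libraries alone, so its call is not read as support. CTSD and CTSH, lysosomal proteases, and MARCH8, a ubiquitin ligase that removes class II from the surface, were the other genes of the list that fell, with calls lost without 8, 6 and 8 single goslings in that order. RFXANK, a partner of RFX5 on class II promoters, held 12.1 ± 3.61 FPKM in gout and 13.2 ± 1.62 in control kidneys (adjusted p = 0.669), and none of NFYA, NFYB, NFYC and CREB1, which bind the same promoters, was called. The list's median log2 fold change was -0.66, and -0.41 after quantile normalization, when CTSS alone of it was called, beside 2.21% of all rows called lower. The calls of SPI1 and IRF4 were also lost without single goslings, of which gout replicates 2 and 4 and control replicate 5 ended both.

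Of 11 further genes of the class I route with a row 10 were tested and 0 were called, beside 6.99% of all rows called in either direction, and 0 were called lower after quantile normalization, beside 2.21%. The list held 19 names, and those with no row included PSME1, PSME2, PSMB8, PSMB9 and PSMB10, which the count does not cover. With so few genes, 0 calls does not set the list apart from all rows. Without control replicate 4 the count was 1. The smallest p was that of IRF2, an interferon regulatory factor, at 1.84 ± 0.180 FPKM in gout and 3.53 ± 1.29 in control (log2 fold change -0.62, limma adjusted p = 0.092). NLRC5, the transactivator of class I genes in mammals, stood at 2.19 ± 1.001 and 3.10 ± 1.07 FPKM (SD, n = 5 and 6; log2 fold change -0.38, adjusted p = 0.35). IRF1, an interferon-induced activator, stood at 64.0 ± 41.7 and 75.4 ± 40.6 FPKM (adjusted p = 0.61). The list's median was -0.39, near the -0.29 of all rows, and -0.13 after quantile normalization. The difference between the class I and class II lists was not tested.

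Costimulatory genes, whose products give T cells the signal that accompanies the peptide, numbered 7 with a row and 5 tested; 2 were called lower and 0 higher, beside the same 6.29% and 0.694%. PDCD1LG2, an inhibitory ligand for T cells, stood at 1.31 ± 0.493 FPKM in control (SD, n = 6) and between 0 and 0.0955 FPKM in the gout kidneys. It passed the filter through the control libraries alone, so a low value in gout was built into its being tested, and its call (log2 fold change -1.11) is not read as support. CD83, a marker of mature dendritic cells, fell from 7.97 ± 3.16 to 2.81 ± 3.17 FPKM (adjusted p = 0.0392), a call lost after quantile normalization and without each of 9 single goslings. Of 5 tested genes of interferon gamma signalling JAK1, a kinase of the receptor, fell from 4.09 ± 0.947 to 1.83 ± 0.158 FPKM (adjusted p = 0.0183; 0.098 after quantile normalization and 0.0511 without gout replicate 2), and 0 rose. Over these 4 lists and the histocompatibility rows 11 of 40 tested rows were called lower and 0 higher. Leaving out rows with no gout library at 1 FPKM, which here removes PDCD1LG2, gave 10 of 39, beside 5.79% of all rows left. After quantile normalization 2 of these, CTSS and LOC106029714, were called lower, beside 1.93%. IRF4 is still counted among the 10, since its gout replicate 1 was above 1 FPKM. Since the 4 lists were written with earlier results of these data known, nothing is read from these shares.

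**Figure D3:**
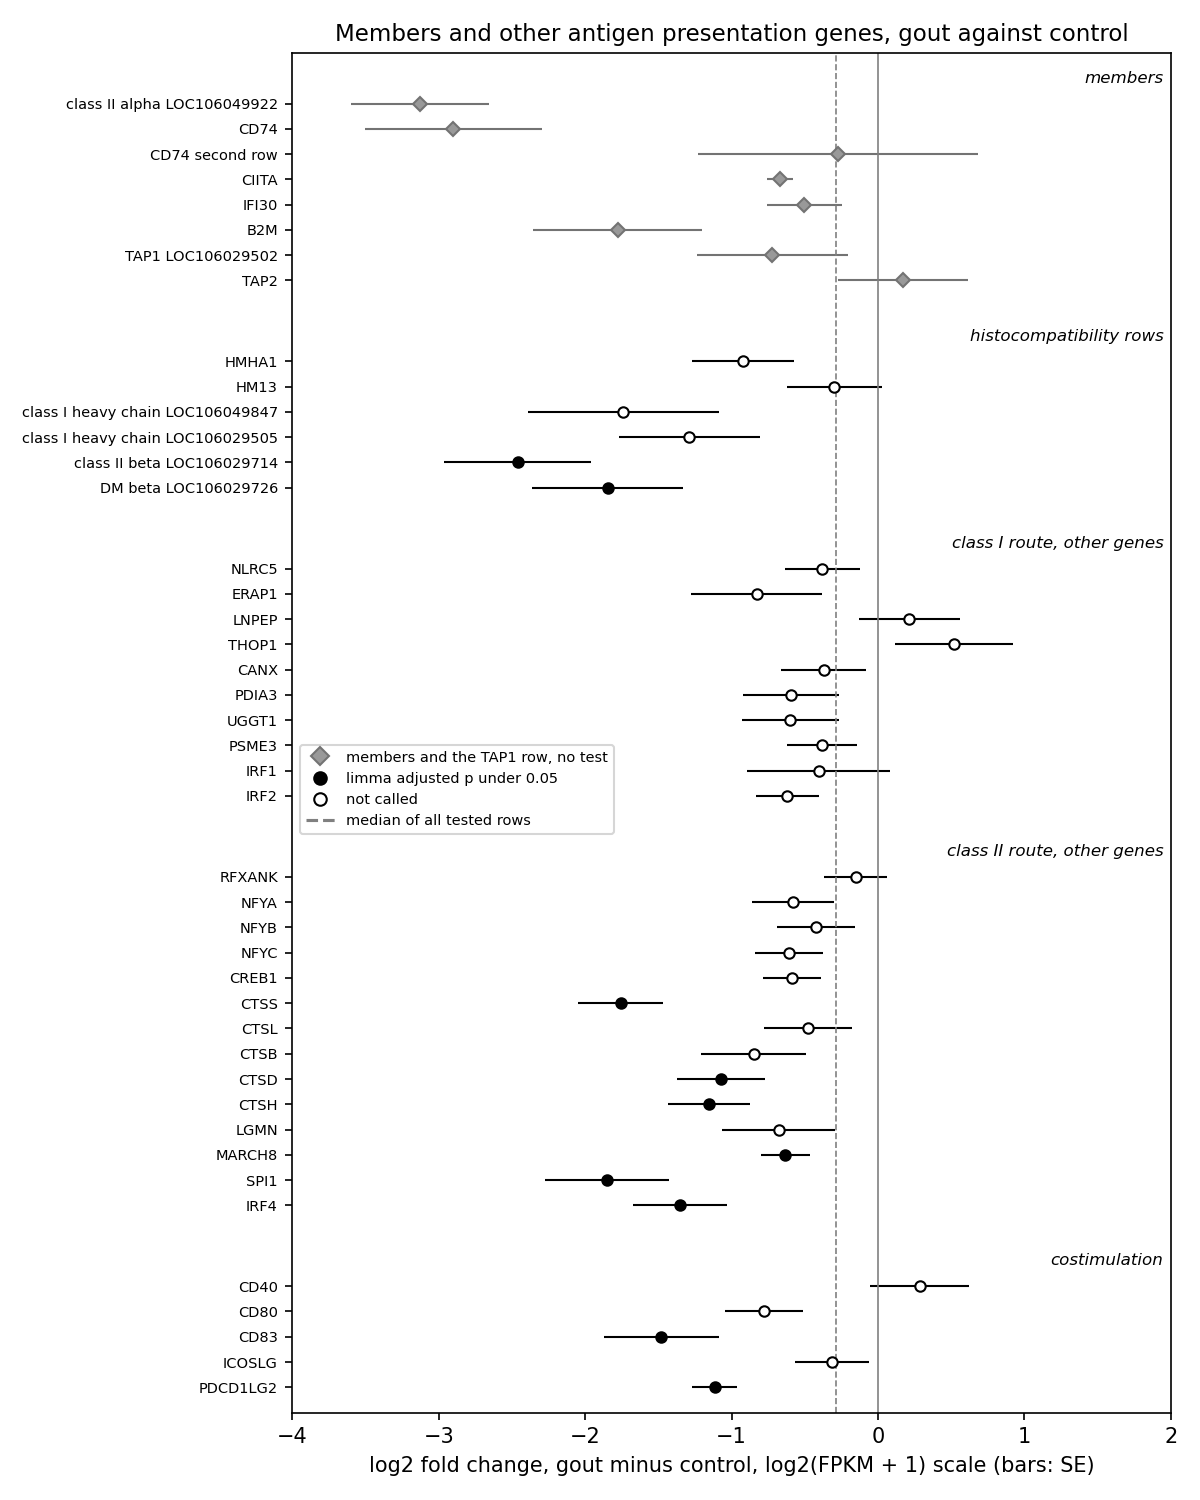
Log2 fold change, gout minus control, on the log2(FPKM + 1) scale with its standard error, for the members and the TAP1 row (grey diamonds, no test, CIITA from the fit with no filter) and the tested genes of 4 further groups; black points passed limma at an adjusted p under 0.05, the solid line is 0 and the dashed line the median of all tested rows (-0.29). Among the groups drawn, which leave out interferon gamma signalling, black points lie among class II rows and costimulatory genes. Of these, PDCD1LG2 passed the filter through control libraries alone, and IRF4 would pass it without gout replicate 1. Of the 10 further class I genes 0 is black.

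Some markers of leukocytes, among them the cells that carry class II, and of tubule cells were called lower in gout. Others of the same lists were not called. For comparison, 6.29% of all rows were called lower, and 2.21% after quantile normalization. Of 4 general leukocyte markers tested 3 fell, among them PTPRC, the common leukocyte antigen CD45, from 6.87 ± 3.81 to 1.52 ± 1.62 FPKM (limma adjusted p = 0.0304). Of 6 macrophage and dendritic cell markers 4 fell, of 5 B and plasma cell markers 2, of 9 T and NK cell markers 8 and of 6 endothelial markers 0; none of these lists had a member that rose. After quantile normalization 1, 2, 2, 5 and 0 of them were called. Of the tubule markers 3 of 6 fell in the proximal and 3 of 6 in the distal list, and 3 and 2 after quantile normalization. Leaving out CD79B, XCR1, TEK and GATM, which reached 1 FPKM in no gout library and so passed the filter through the control libraries alone, 1 of 4 B cell, 3 of 5 macrophage and dendritic cell, 0 of 5 endothelial and 2 of 5 proximal markers were lower, beside 5.79% of all rows left. A row with 1 gout library at 1 FPKM is kept by this rule. CD8A, LCK and ZAP70, among the T and NK markers that fell, reached it in gout replicate 1 alone. They too would pass the filter through the control libraries alone. CD28, also called lower, reached 1 FPKM in gout replicate 1 alone as well, at 1.08, and passed the filter only with that library.

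The markers with the greatest changes included JCHAIN, the joining chain of secreted antibodies, at 26.0 ± 50.3 FPKM in gout and 264 ± 169 in control (SD, n = 5 and 6; limma adjusted p = 0.00796). The gout mean of JCHAIN was carried by replicate 1 at 116 FPKM, and without it was 3.51. CD79B, a part of the B cell receptor, stood at 0.282 ± 0.313 and 3.48 ± 1.47 FPKM. MPEG1, a macrophage protein, fell from 107 ± 67.9 to 20.4 ± 28.5 FPKM, and CSF1R, the macrophage growth factor receptor, from 18.4 ± 7.35 to 6.34 ± 6.10. XCR1, a receptor of the dendritic cells that cross-present antigen in mammals, stood at 2.97 ± 1.79 FPKM in control and 0.156 ± 0.119 in gout. LCP1 and LAPTM5 among general leukocyte markers fell with log2 fold changes of -2.08 and -1.96, and CD8A, CD2 and CD3E among T cell markers with log2 fold changes of -2.09, -2.07 and -1.85. GATM, SLC6A19 and SLC22A7 led the proximal list (log2 fold changes of -3.71, -2.85 and -2.40) and CALB1, CLDN19 and SLC12A1 the distal one, and TEK was nearest to a call among endothelial markers (adjusted p = 0.0506). No marker was at 0 in all libraries, and PAX5, a defining B cell factor, was listed at 0 in gout replicates 2 to 5. SPI1 and IRF4, named above, are leukocyte factors as well. CD79B, XCR1, GATM and TEK reached 1 FPKM in no gout library, and CD8A did so in gout replicate 1 alone. A low value in gout was thus built into the testing of the former, and the changes of all of these are not read as support.

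The summed level of the 7 macrophage and dendritic cell markers with a row was 144 FPKM in gout replicate 1, 19.8 to 37.1 in the other gout libraries and 105 to 393 in control. The general leukocyte sum was 161 FPKM in gout replicate 1, 42.1 to 93.6 in the others and 135 to 378 in control, and the B cell sum was 137, 11.7 to 16.4 and 88.9 to 550.3 FPKM. Gout replicate 1 was thus the gout kidney nearest to control for these markers as for CD74, LOC106049922 and B2M. The sums follow their most abundant genes. LAPTM5 and ARHGDIB, which was not called, made up most of the general leukocyte sum, and JCHAIN most of the B cell sum in control. BLNK, not called, made up 11.5 of 16.0 and 12.3 of 16.3 FPKM of the B cell sum in gout replicates 2 and 5. MPEG1 made up 238 of 393 FPKM of the macrophage and dendritic cell sum in control replicate 1 and 4.17 of 35.3 in gout replicate 5. Its share of that sum thus differed between libraries, which limits the ratios to it. Relative to the macrophage and dendritic cell sum, CD74 stood at 7.61 to 12.5 in control and at 8.79, 4.44, 6.82, 11.2 and 4.83 in gout, where replicates 2, 3 and 5 were below all controls. B2M stood at 3.66 to 6.26 times the same sum in control and at 10.1, 9.62, 3.37, 9.81 and 4.58 in gout, where replicates 1, 2 and 4 were above all controls. LOC106049922 stood at 4.38 to 8.05 times that sum in control and at 2.95, 2.94, 6.29, 4.29 and 2.18 times in gout, where all libraries but replicate 3 were below all controls. Relative to the general leukocyte sum CD74 stood at 5.91 to 12.0 in control and at 7.89, 1.89, 1.74, 5.61 and 4.05 in gout, where all libraries but replicate 1 were below all controls. Relative to PTPRC alone CD74 spread from 180 to 995 in control and from 90.9 to 1581 in gout, and the groups overlapped. The part of leukocyte number in the lower class II values was not tested.

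**Figure D4:**
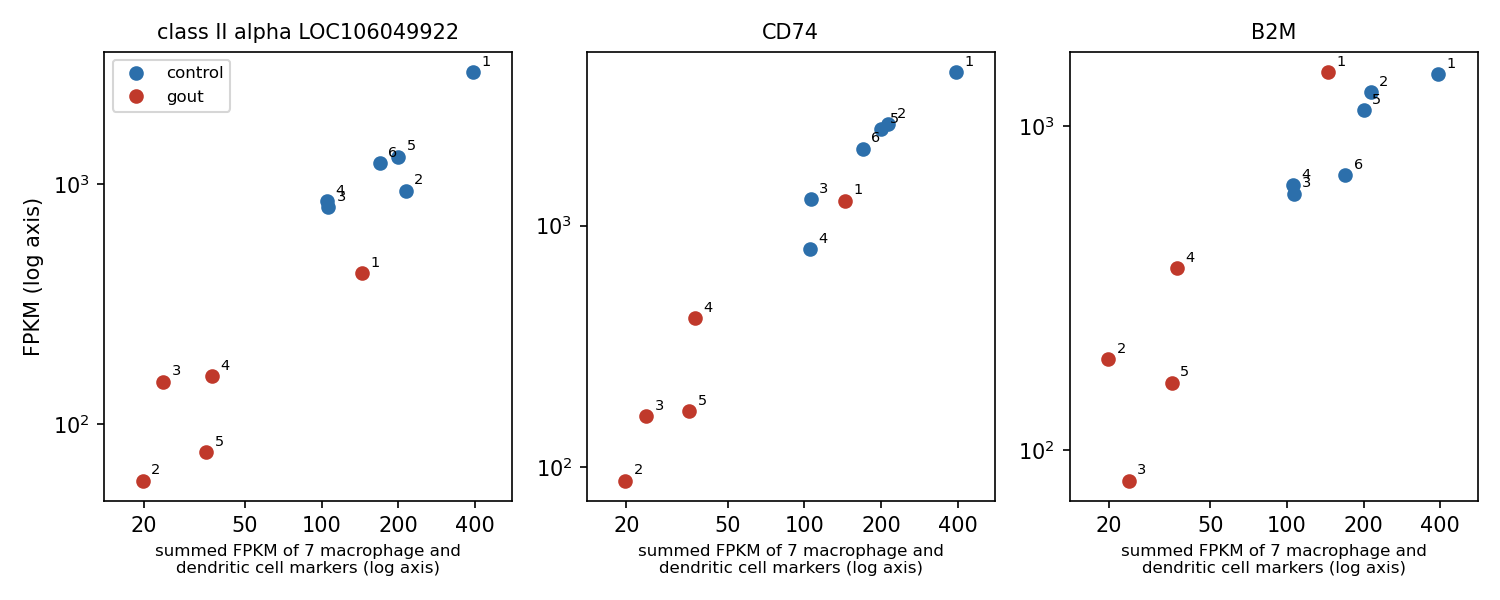
FPKM of LOC106049922, CD74 and B2M against the summed FPKM of 7 macrophage and dendritic cell markers in each library, both on log axes; numbers are replicates, blue control and red gout. In all 3 panels the gout libraries 2 to 5 lie at marker sums of 19.8 to 37.1 and below the control values, and gout replicate 1 lies at 144.

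Within the 6 control kidneys alone, where the contrast with gout plays no part, 6 correlations among these genes were computed on log2(FPKM + 1) values with exact two-sided permutation tests. CD74 and B2M varied together (Pearson r = 0.866, exact p = 0.00833, adjusted p = 0.0417; Spearman rho = 0.943, exact p = 0.0167, adjusted p = 0.05), and r was 0.880 without the 2 kidneys farthest from the median of CD74. B2M and the TAP1 row did so as well (r = 0.879, exact p = 0.0139, adjusted p = 0.0417; rho = 0.943, exact p = 0.0167, adjusted p = 0.05), with r = 0.732 without the 2 farthest kidneys. For both pairs the Spearman test did not reach an adjusted p under 0.05, so their calls rest on Pearson r. Quantile normalization and upper quartile scaling ended the calls of both pairs (r = 0.742 and 0.818 for CD74 with B2M, 0.729 and 0.858 for B2M with TAP1). The TPM scale (r = 0.816) ended that of B2M with TAP1. Neither pair passed with 5 kidneys, whichever was left out, but 5 kidneys allow so few pairings that the exact test could hardly pass. Nothing is read from that outcome. With 5 kidneys r was 0.784 to 0.939 for CD74 with B2M and 0.803 to 0.976 for B2M with TAP1. CD74 and LOC106049922 had r = 0.799 (exact p = 0.0361, adjusted p = 0.0722; rho = 0.771, exact p = 0.103, adjusted p = 0.123), and 0.646 without the 2 farthest.

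LOC106049922 with B2M (r = 0.687, exact p = 0.0861, adjusted p = 0.103; rho = 0.829, exact p = 0.0583, adjusted p = 0.117) and the TAP1 row with TAP2 (r = 0.788, exact p = 0.0694, adjusted p = 0.103; rho = 0.771, exact p = 0.103, adjusted p = 0.123) did not pass, and r was 0.186 and 0.446 without the 2 farthest kidneys. CD74 with CIITA had r = 0.342 (exact p = 0.514, adjusted p = 0.514; rho = 0.371, exact p = 0.497, adjusted p = 0.497). That relation changed sign without control replicate 1 (r = -0.21), without the 2 farthest kidneys (r = -0.20) and after quantile normalization (r = -0.04). No correlation was computed within the 5 gout kidneys.

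As a measure of likeness, the correlation of log2(FPKM + 1) over all 11 libraries was taken after the group means were removed, as a description with no test. It was computed on the deposited scale alone, so a shared scaling of the libraries cannot be told apart from likeness of the genes. The rows with a gene symbol most like CD74 were DNMT1 (r = 0.977), SETD2, TMEM39A, WDR91, TMEM184B and EDC4 (r = 0.948), and without gout replicate 1 these values lay between 0.917 for EDC4 and 0.982 for SETD2. LOC106049922 stood at 0.893 to CD74, B2M at 0.857, IFI30 at 0.701 and TAP2 at 0.310. Among the rows most like B2M were DUSP6 (r = 0.964), MOV10, BCL2L15, PHF11 and RSPRY1 (r = 0.951). The TAP1 row stood at 0.926 to B2M, LOC106049922 at 0.695 and TAP2 at 0.571, and without gout replicate 1 at 0.950, 0.329 and 0.768. Without that library LOC106049922 stood at 0.794 to CD74, B2M at 0.679, IFI30 at 0.480 and TAP2 at 0.280. None of the genes named here as most like CD74 or B2M was called between the groups.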

How the data were processed

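Kidney RNA of 11 goslings, described by the series as separate animals, was sequenced as poly(A)-selected paired-end Illumina libraries, per the labels' protocols. Labels on lowering oxygen in water tanks and on adipose tissue do not concern gosling kidney and were left unused. The deposited FPKM values were made by the authors; HISAT and StringTie are named, without versions, per the submitters' processing notes, and the genome build and strand setting are not given in the sources used here. In 55 pairs of libraries at most 0.745% of low rows shared a common ratio (tolerance 0.001 on the natural log), so no counts were recovered and depth is unknown.

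Values were analysed as log2(FPKM + 1) with limma 3.58.1 in R 4.3.3 (empirical Bayes with trend, two-sided, Benjamini-Hochberg adjustment, threshold 0.05) after the filter of 1 FPKM in 5 libraries. Permutation tests used scipy 1.17.1. The members and all gene lists were chosen with earlier results of these data known. Where a symbol had more than 1 row, the row with the highest mean was used. Histocompatibility rows were found by that word in the table's own annotation, since the RefSeq table holds no descriptions. RefSeq gene numbers gave a symbol to 924 of 5896 rows named by LOC numbers, TAP1 among them.

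Named were all member rows, up to 3 called genes of each list by size of change or the one with the smallest p, the 6 rows most like CD74 and B2M, and IRF1, NLRC5, CTSS and PTPRC, except for genes that are not reported here; other names were added after their values were seen. In 5 simulations of gout against control over 12252 rows, with changes planted in rows averaging above 5 FPKM, 32.6% of 2-fold changes and 87% of 4-fold changes were recovered and 4.13% of calls were false. The simulated noise was normal and independent between rows, with no shift of all rows. These shares therefore do not carry over to the calls in the real libraries. Alternatives changed the scaling (quantile, upper quartile, TPM), the pseudocount (0.1) or the filter (none, or 5 FPKM), used the label number as a block or left out each gosling. The use of LOC106029502 as TAP1 and of renamed LOC numbers, and counts without rows that reach 1 FPKM in no gout library, were chosen after the data were seen.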

Additional observations from a re-analysis of the deposited data

Results flagged for a closer look

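For 27 rows, 54 groups of log2(FPKM + 1) values were examined for a library standing apart by a criterion that chance meets in about 1 of 20 groups, and 2 had one. Chance at that rate gives about as many, so neither group is read as a result. LOC106049922, the class II alpha chain, was high in control replicate 1 at 2916 FPKM, with 1297 FPKM in the next control. IRF4 was high in gout replicate 1 at 1.62 FPKM, with 0.105 FPKM in the next gout library. Gout replicate 1 was also the gout library with the highest B2M and CD74, at 1465 and 1269 FPKM.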

How the results depend on the processing

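As a description, the log2 fold changes of LOC106049922 and CD74 lay from -3.54 to -2.83 and from -3.47 to -2.51 when any 1 gosling was dropped. The number of rows called over the table went from 856 to 450 with the filter at 5 FPKM, 494 after quantile normalization and 491 with upper quartile scaling, and from 316 to 1466 with single goslings left out; calls that were higher in gout made up 9.93% on the deposited scale, 45.1% after quantile normalization, 39.5% with upper quartile scaling and 19.8% on the TPM scale. The other antigen presentation genes called went from 11 to 6, 3 and 4 under the first 3 of these settings and from 3 to 15 with single goslings left out. The difference between class II and class I medians moved to -1.85 with a pseudocount of 0.1. The correlation within control of CD74 with B2M was 0.742 after quantile normalization, 0.818 with upper quartile scaling and 0.784 to 0.939 with single kidneys left out, that of B2M with TAP1 0.729, 0.858, 0.816 on the TPM scale and 0.803 to 0.976, and that of CD74 with CIITA turned to -0.0385 after quantile normalization and ranged from -0.21 to 0.88. The sign turned for TAP2 without single goslings (-0.10 to 0.55) and for HM13 with upper quartile scaling (0.0171). For the second CD74 row it turned after quantile normalization (0.0686) and without single goslings (-0.86 to 0.55). With the label number as a replicate block TAP2 stood at -0.0731, the same fold change as without control replicate 6. No gout gosling has that number, so the block takes this control out of the contrast and is no separate check of fold changes. The cause of the other changes was not tested. The deviations of goslings with the same label number had correlations of -0.09 to 0.24 over the tested rows. They were not compared with those of unlike numbers, so whether the number pairs goslings is unknown. With it as a replicate block 671 rows were called. The log2 fold change of B2M was then -1.85 (SE 0.46), the same as without control replicate 6, and is given as a description with no test. FPKM without counts leaves the precision of low rows such as CIITA unknown.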
